A study of Mus musculus with 45 samples.

Results

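T cell identity genes were followed in mouse induced pluripotent stem cells (iPSCs) that had been made from T cells and from other cell types. The set was named by symbol as Cd3d, Cd3e, Cd3g, Lck, Zap70, Cd28, Cd5 and Lat. These are genes of the T cell receptor, of its first signalling steps and of the surface receptors Cd28 and Cd5. Every probe set paired with exactly 1 of these symbols was taken. That rule reads symbols and no measured value. Of the 8 genes, 7 had a probe set, out of 11807 genes paired with a probe set of their own in the larger table and 12394 at passage 10. They were read by 8 of 22690 probe sets on the 33 arrays of passages 4, 6 and 16 and by 9 of 22690 on the 12 arrays of passage 10. Lck, the kinase that phosphorylates the receptor, was paired with no probe set and was not analysed here.

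The 45 arrays formed 15 groups of 3 clones, and all cells were lines of a secondary reprogramming system, in which the somatic cells already carry the reprogramming factors. Mouse 2 gave lines from T cells, splenic B cells, bone marrow granulocytes and tail tip fibroblasts, each at passages 4, 10 and 16. Mouse 1 gave lines from granulocytes at passages 4 and 16 and from skeletal muscle precursors at passage 6. All lines were kept in serum and LIF on irradiated embryonic fibroblast feeders, which were reduced by preplating before RNA was extracted. Strain, age, sex and the factors' inducer are not given in the sources used here. The clones of each group came from 1 mouse, so no p-value measures how animals varied. Each rests on the spread among clones within groups, shared over all groups of a table, and the larger table holds groups of both mice. The sources do not say whether the T cells were CD4+ or CD8+, and no unreprogrammed T cell was among the samples, so no level below is set against that of a T cell.

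The T cell receptor reads antigen through variable chains that cannot signal alone and rely on the CD3 chains for this. Lck phosphorylates the CD3 chains, the kinase Zap70 docks there, and Zap70 phosphorylates the membrane adaptor Lat, on which the downstream complexes are built. Cd28 gives the second, costimulatory signal and Cd5 damps the response. These genes are switched on as blood progenitors commit to the T lineage.

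The promoters of 4 members are shown because they stand for the set's range on the arrays: Lat and Zap70, which differed most between groups, and Cd3d and Cd3e, which sat near the dim end at passages 4 to 16. Each is the stretch of 250 bases before an annotated transcript start in RefSeq (GRCm38.p6), 5′ to 3′ on the gene's strand. For Lat, Cd3d and Cd3e that start lies inside the outermost bounds of the gene. Capitals mark AGGAAG on either strand (CTTCCT on the other), a core motif of ETS-family factors, which bind many lymphoid promoters.
Lat, chr7:126369569-126369818, minus strand: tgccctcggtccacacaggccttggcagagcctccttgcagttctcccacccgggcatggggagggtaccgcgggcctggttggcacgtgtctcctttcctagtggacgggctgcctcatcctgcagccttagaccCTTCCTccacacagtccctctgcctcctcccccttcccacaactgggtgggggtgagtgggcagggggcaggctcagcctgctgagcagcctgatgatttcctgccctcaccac
Zap70, chr1:36761548-36761797, plus strand: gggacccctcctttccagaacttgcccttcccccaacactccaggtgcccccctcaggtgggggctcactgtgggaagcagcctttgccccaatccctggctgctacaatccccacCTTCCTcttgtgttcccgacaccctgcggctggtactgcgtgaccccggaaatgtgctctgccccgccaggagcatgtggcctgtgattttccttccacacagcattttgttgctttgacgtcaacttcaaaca
Cd3d, chr9:44981536-44981785, plus strand: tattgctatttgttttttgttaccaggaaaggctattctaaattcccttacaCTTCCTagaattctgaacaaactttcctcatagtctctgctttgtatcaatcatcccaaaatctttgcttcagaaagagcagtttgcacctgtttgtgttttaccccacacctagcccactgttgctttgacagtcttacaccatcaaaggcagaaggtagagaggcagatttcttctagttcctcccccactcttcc
Cd3e, chr9:45009612-45009861, minus strand: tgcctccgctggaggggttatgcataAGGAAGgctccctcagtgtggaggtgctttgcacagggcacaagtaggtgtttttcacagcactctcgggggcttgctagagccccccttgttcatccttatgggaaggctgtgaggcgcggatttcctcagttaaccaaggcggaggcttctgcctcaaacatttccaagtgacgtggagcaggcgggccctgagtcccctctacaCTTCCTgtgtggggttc

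RefSeq gave 10 such windows for 7 of the 8 genes, with several for Zap70 and Lck and none for Cd28. AGGAAG was found in 8 of the 10, beside 29.5% of all 32851 windows. The RUNX core TGTGGT was found in 2 of the 10 (14.0% of all windows) and the E-box CANNTG in 9 of the 10 (66.2% of all), each read on both strands; no overlaps between these motifs were removed. The Lat window held 65.2% G and C and 6 CpG sites, and the Cd3d window 41.2% and none, beside medians of 52.4% and 6 over all windows. These matches describe letters and were not tested as binding sites. Cd3d (chr9:44981769-44987052), Cd3e (chr9:44998735-45009663) and Cd3g (chr9:44969572-44980431) lie side by side on chromosome 9, Zap70 (chr1:36761798-36782821) and Cd28 (chr1:60746388-60773359) on chromosome 1, Cd5 (chr19:10718107-10739026) on chromosome 19 and Lat (chr7:126363827-126369705) on chromosome 7.

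The label of the cultures was checked against markers. All measured pluripotency markers, 8 in the table of 33 arrays and 9 at passage 10, had median percentiles from 86.1 to 99.9 within their arrays. The 2 tables were normalized separately and come from different array platforms, so no level is compared between them. Array medians ran from 6.42 to 6.65 log2 units in the larger table and from 6.98 to 7.10 at passage 10. Clone 3 of the passage 16 granulocyte lines of mouse 2 was the array least like its group, with a mean correlation of 0.921 with the other clones. Member calls that changed when it was left out are given below. Most other values that use it are given only with it included.

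Most T cell identity probe sets lay toward the dim end of the arrays. As a reference for probe sets of genes not expected in these cells, the 95th percentile of the probe sets of olfactory, vomeronasal and taste receptor genes was used in each array (72 probe sets in the larger table and 69 at passage 10). It lay between 4.23 and 5.86 log2 units in the larger table, a level that 23.5% to 40.4% of all probe sets did not exceed, and the top of this range was the outlying granulocyte clone. At passage 10 it lay between 4.88 and 5.10. Probe sets differ in brightness for reasons other than expression, so a position in the array says only how far a signal stood from its dim end.

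Among the receptor chains, Cd3d (probe set 1422828_at) stood between the percentiles 8.62 and 23.7 in the 33 arrays, with a median of 14.5, and Cd3g (1419178_at) between 5.05 and 18.2. Neither exceeded the sensory receptor reference or rose past percentile 25 in any of these arrays. Cd3e (1422105_at) reached further, from 15.0 to 38.0 with a median of 24.3, and exceeded the reference in 11 of 33 arrays. These 11 arrays were spread over 8 groups and held 1 of the 6 T cell arrays of passages 4 and 16, clone 3 at passage 16.

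The costimulatory receptor Cd28 was read by a pair of probe sets, and both stayed low in every array: 1417597_at between the percentiles 3.15 and 11.3 and 1437025_at between 0.207 and 11.9. The 11.9 belonged to T cell clone 2 of passage 16 (3.55 log2 units), while the other T cell clones of that passage stood at 1.78 and 0.595 (2.85 and 2.73 log2 units). The inhibitory receptor Cd5 (1418353_at) ran from 18.3 to 26.8 and exceeded the reference in 2 of 33 arrays. The signalling members stood higher. Zap70 (1422701_at) lay between 25.3 and 47.6 with a median of 37.6 and exceeded the reference in 31 of 33 arrays, though never the array median. Lat (1460651_at) lay between 49.3 and 72.2, exceeded the reference in all 33 arrays and the array median in 32.

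At passage 10 the order was partly different. Cd3g (0.577 to 6.40), Cd28 (0.240 to 9.89 and 1.93 to 6.47) and Cd5 (11.5 to 17.6) again stayed below the reference in all 12 arrays. Cd3d exceeded it in 10 of 12 arrays (percentiles 25.6 to 31.7) and Cd3e in all 12 (38.9 to 42.2), with T cell arrays among and not above the others. Zap70 was read by 1422701_at (38.2 to 48.9) and by 1439749_at (57.0 to 62.9), and Lat stood between 54.4 and 61.4. Probe set 1439749_at is paired with Zap70 only in the list of the passage 10 platform, and the list of the other platform gives it no name.

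**Figure D1:**
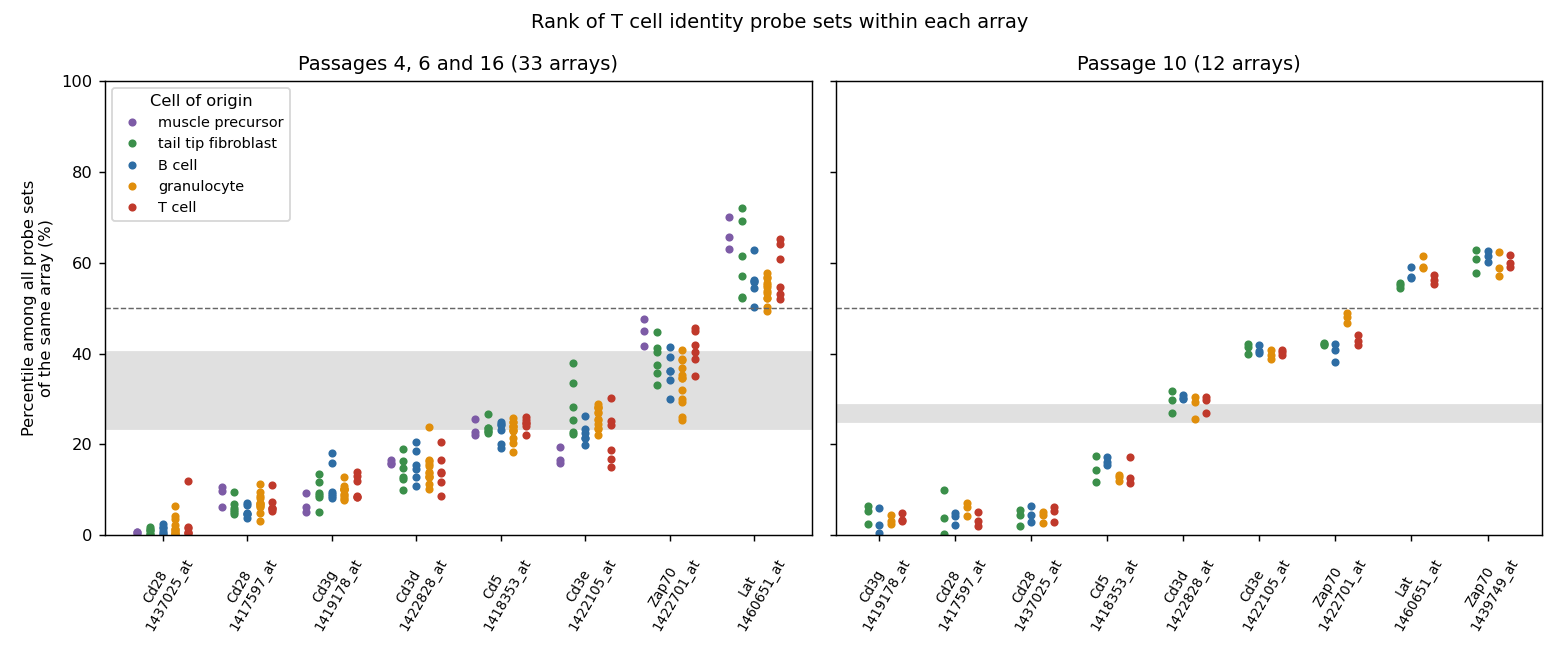
Percentile of each T cell identity probe set among all probe sets of the same array, 1 point per array, coloured by cell of origin, for passages 4, 6 and 16 (33 arrays) and passage 10 (12 arrays). The grey band spans the 95th percentile of sensory receptor probe sets over the arrays and the dashed line is the array median: in the larger table Cd28, Cd3g and Cd3d stay below the band or at its lower edge, and Lat lies near or above the median. T cell points overlap with those of the other origins for every probe set; single T cell points are the highest for Cd28 1437025_at (11.9) and the lowest for Cd3d (8.62) and Cd3e (15.0).

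The first comparison asked whether T cell lines held higher levels of T cell genes than the other origins at an early passage. At passage 4, 1 of 8 probe sets, the one for Zap70, was called higher in T cell lines than in the mean of the other 3 origins of mouse 2, beside 17.4% of all probe sets called in this comparison and 10.3% called higher. A call is a two-sided limma p under 0.05 after Benjamini-Hochberg adjustment over all 22690 probe sets. The receptor chains, Cd28 and Cd5 were not called in either direction. For no member did all 3 T cell arrays lie above, or all below, the other 9, a separation that 5.63% and 3.2% of all probe sets showed.

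Zap70 levels at passage 4 were 5.76, 6.19 and 5.63 log2 units in the T cell clones, 6.04, 5.11 and 5.67 in the fibroblast clones, 5.11, 4.80 and 5.54 in the B cell clones and 4.88, 4.73 and 4.42 in the granulocyte clones. T cell clones were the highest on average and granulocyte clones the lowest, and 2 fibroblast clones lay within the range of the T cell clones. The T cell lines exceeded the mean of the others by 0.71 ± 0.21 log2 units (SE, limma, n = 3 clones a group, adjusted p = 0.017; 0.0076 to 0.51 over the alternatives). Without T cell clone 2 the difference was 0.55 and no longer called (adjusted p = 0.16).

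The mean of the fibroblast marker list, genes that feeder cells also express, moved with this comparison. It was 7.10 ± 0.11 log2 units (SD, n = 3) in T cell lines at passage 4, against 6.17 ± 0.14 in fibroblast lines, 6.08 ± 0.07 in B cell lines and 6.57 ± 0.07 in granulocyte lines. With this mean as a covariate the Zap70 difference was 0.48 ± 0.34 and not called (SE, limma adjusted p = 0.51). That fit called 5.86% of all probe sets in this comparison, against 17.4% without the covariate. In these bulk samples, fewer cells of a type and less RNA per cell cannot be told apart.

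Against the origins one by one, Zap70 of T cell lines was higher than in granulocyte lines by 1.18 ± 0.25 log2 units (SE, limma adjusted p = 0.0010; 0.00062 to 0.019 over the alternatives). Its differences from B cell lines (0.71 ± 0.25, SE, limma adjusted p = 0.060) and from fibroblast lines (0.25 ± 0.25, adjusted p = 0.64) were not called. These comparisons share the T cell arrays. Probe set 1439749_at, unnamed in this table, differed by 0.06 ± 0.23 (SE, limma adjusted p = 0.92) between T cell lines and the others.

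Lat, the adaptor that Zap70 phosphorylates, was at 7.88, 7.67 and 7.93 log2 units in the T cell clones of passage 4. The fibroblast clones had 7.60, 8.46 and 8.30, the B cell clones 7.10, 7.07 and 7.73, and the granulocyte clones 6.42, 6.68 and 6.93. T cell and fibroblast clones overlapped, and all T cell clones lay above all granulocyte clones. The T cell lines differed from the mean of the others by 0.46 ± 0.18 (SE, limma adjusted p = 0.075; 0.031 to 0.35 over the alternatives). The difference was called without B cell clone 3 (0.53, adjusted p = 0.031) and without fibroblast clone 2 (0.52, adjusted p = 0.043).

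Of the 2 probe sets called between T cell and granulocyte lines (25.2% of all probe sets were called there), Lat differed by 1.15 ± 0.22 log2 units (SE, limma adjusted p = 0.00028; 0.00011 to 0.0037 over the alternatives). Between T cell and B cell lines 0 of 8 were called by limma, with 2 at an unadjusted p under 0.05, beside 14.7% and 26.8% of all probe sets. There Lat differed by 0.52 ± 0.22 (SE, adjusted p = 0.11).

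Cd3e, the chain through which most antibodies stimulate T cells in culture, had its lowest mean among the 4 origins of passage 4 in the lines made from T cells. Its T cell clones had 3.71, 4.45 and 3.90 log2 units, the fibroblast clones 4.25, 5.47 and 5.09, the B cell clones 4.16, 4.49 and 4.02 and the granulocyte clones 4.60, 4.70 and 4.30. Fibroblast clones 2 and 3 stood above all others, and the T cell clones overlapped with the B cell clones. The difference between T cell lines and the others was -0.54 ± 0.20 (SE, limma adjusted p = 0.067; 0.011 to 0.33 over the alternatives). It was called without T cell clone 2 (-0.76, adjusted p = 0.032), without fibroblast clone 1 (-0.66, adjusted p = 0.011) and without the outlying granulocyte clone of passage 16 (adjusted p = 0.044). It was also called with quantile (-0.56, adjusted p = 0.034) and cyclic loess normalization (-0.57, 0.022).

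The single call between T cell and fibroblast lines (11.5% of all probe sets were called) was Cd3e, lower by 0.91 in the T cell lines: the difference was -0.91 ± 0.25 log2 units (SE, limma adjusted p = 0.017; 0.0011 to 0.16 over the alternatives). That call was lost without T cell clone 1 (adjusted p = 0.095) or 3 (0.056), without fibroblast clone 2 (0.16) or 3 (0.054), and in a fit of the 12 arrays of passage 4 alone (0.053).

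The other receptor chains, Cd28 and Cd5 differed little. In T cell clones of passage 4, Cd3d was at 3.64, 3.87 and 3.59 log2 units, Cd3g at 3.28, 3.63 and 3.38 and Cd5 at 4.34, 4.24 and 4.45. Cd28 was at 3.11, 3.28 and 3.17 by 1417597_at and at 2.60, 2.73 and 2.85 by 1437025_at. All of these overlapped with the other 9 arrays. The differences were 0.04 ± 0.19 for Cd3d, 0.10 ± 0.13 for Cd3g, 0.04 ± 0.10 for Cd5, and 0.01 ± 0.15 and -0.02 ± 0.14 for Cd28 (SE, limma adjusted p from 0.69 to 0.98). Their 95% intervals ran from -0.34 at the lowest to 0.43 at the highest, both for Cd3d. Signals this near the dim end can understate a change in RNA.

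**Figure D2:**
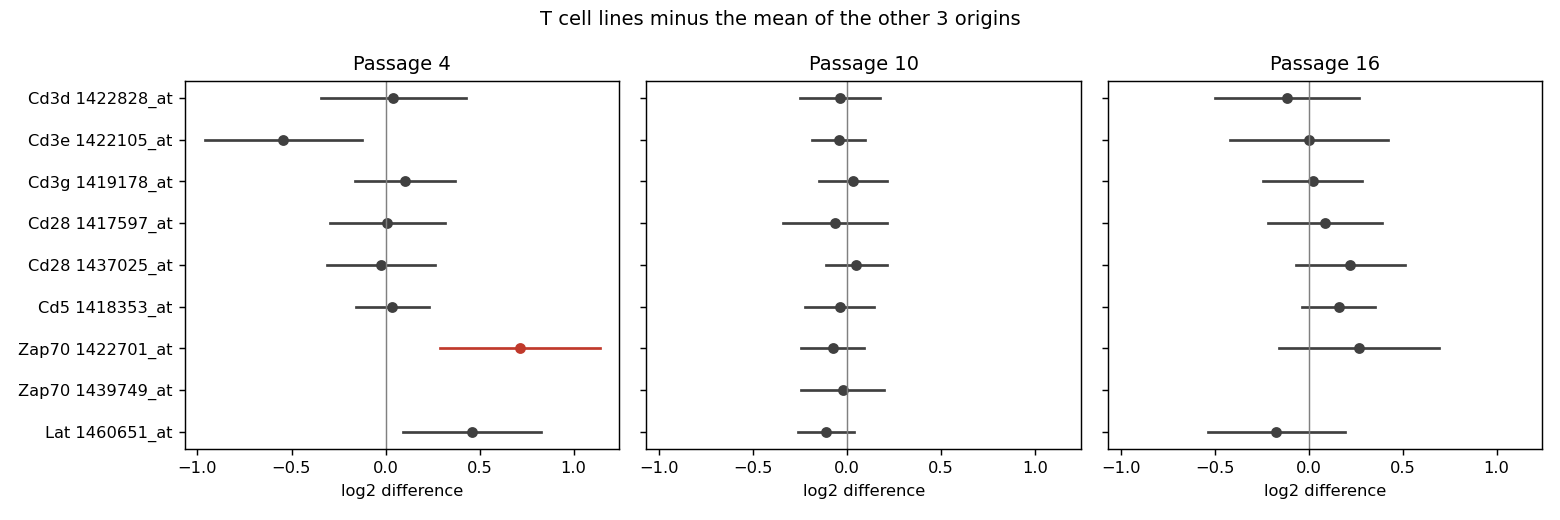
Difference in log2 level of each probe set between T cell lines and the mean of the other 3 origins of mouse 2, at passages 4, 10 and 16, with 95% intervals from the limma fit (3 clones a group). The red point, Zap70 at passage 4 (0.71), is the only call; Lat (0.46) and Cd3e (-0.54) lie on opposite sides of 0 at passage 4, and at passage 10 all points lie between -0.11 and 0.05.

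At passage 10, 0 of 9 probe sets were called by limma between T cell lines and the others, none at an unadjusted p under 0.05. No probe set of the whole table was called either (0.0%, with 3767 or 16.6% at an unadjusted p under 0.05). The differences ran from -0.11 ± 0.07 for Lat to 0.05 ± 0.07 for Cd28 1437025_at (SE, adjusted p from 0.43 to 0.94). The widest 95% interval, for Cd28 1417597_at, was -0.34 to 0.21. All 3 T cell arrays lay above the other 9 for 1.43% of all probe sets and below them for 0.78%, and for no member.

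At passage 16, 0 of 8 were called by limma, none at an unadjusted p under 0.05, beside 2.26% of all probe sets called and 14.7% at an unadjusted p under 0.05. The differences ran from -0.17 ± 0.18 for Lat to 0.27 ± 0.21 for Zap70 (SE, adjusted p from 0.48 to 1). The Zap70 interval was -0.16 to 0.69. The T cell arrays lay wholly above the others for 0.987% of all probe sets and wholly below for 1.71%, and again for no member. Lat of T cell clones was then at 6.60, 6.82 and 6.85 log2 units and Zap70 at 5.16, 5.45 and 6.05, overlapping with the other origins (6.62 to 7.20 and 4.54 to 5.74).

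The members were then compared among all 4 origins. The moderated F-test over the 4 origins called 3 of 8 at passage 4 (37.9% of all probe sets), 2 of 9 at passage 10 (25.8%) and 0 of 8 at passage 16 (1.35%; none of the members but 20.8% of all probe sets at an unadjusted p under 0.05). The calls were Lat (limma adjusted p = 5.4e-05), Zap70 (0.0026) and Cd3e (0.022) at passage 4. At passage 10 they were Zap70 1422701_at (0.0011) and Lat (0.0055).

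Granulocyte lines of mouse 2 had the lowest mean Lat and Zap70 (1422701_at) of the 4 origins at passage 4 and the highest at passage 10. At passage 16, on the platform of passage 4, they had the highest mean Lat (6.99 log2 units) but again the lowest mean Zap70 (4.99). No member was called among the 4 origins there. At passage 4 both, and no other member, were called lower in granulocyte lines than in the mean of the other origins (2 of 8; 21.5% of all probe sets called, 11.8% lower). Lat differed by -1.07 ± 0.18 log2 units (SE, limma adjusted p = 9.5e-05; 2e-05 to 0.0033 over the alternatives) and Zap70 by -0.86 ± 0.21 (adjusted p = 0.0035; 0.0012 to 0.038). These comparisons share arrays with those of the T cell lines.

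At passage 10, Lat was at 7.95, 8.14 and 7.94 log2 units in the granulocyte clones, 7.73, 7.58 and 7.61 in the T cell clones, 7.56, 7.44 and 7.53 in the fibroblast clones and 7.63, 7.89 and 7.72 in the B cell clones. Zap70 by 1422701_at was at 6.74, 6.91 and 6.84 in granulocyte clones, 6.28, 6.45 and 6.23 in T cell clones, 6.26, 6.29 and 6.21 in fibroblast clones and 5.91, 6.24 and 6.17 in B cell clones. For both genes, all 3 granulocyte clones lay above all 9 other arrays, which 12.2% of all probe sets did.

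Lat of granulocyte lines exceeded the mean of the others by 0.38 ± 0.07 (SE, limma adjusted p = 0.0014; 0.00058 to 0.77 over the alternatives) and Zap70 by 0.61 ± 0.08 (adjusted p = 0.00016; 7.6e-05 to 0.87), 2 of 9 called beside 31.8% of all probe sets. In T cell lines against granulocyte lines, also 2 of 9 called (22.3%), Zap70 differed by -0.51 ± 0.09 (SE, limma adjusted p = 0.0030; 0.0026 to 0.74 over the alternatives) and Lat by -0.37 ± 0.08 (adjusted p = 0.0091; 0.0039 to 0.54). T cell lines thus had more Lat, and more Zap70 by 1422701_at, than granulocyte lines at passage 4 and less of both at passage 10, on separate array platforms.

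The other Zap70 probe set of passage 10, 1439749_at, was at 7.78, 8.22 and 7.91 log2 units in granulocyte clones and at 7.99, 7.96 and 8.13 in T cell clones. Fibroblast clones had 7.82, 8.24 and 8.07, and B cell clones 8.21, 8.12 and 8.05. These ranges overlap, and the granulocyte difference was -0.09 ± 0.10 (SE, limma adjusted p = 0.55), so the probe sets paired with Zap70 disagreed. The fibroblast marker mean also differed at passage 10: 7.33 ± 0.06 log2 units (SD, n = 3) in granulocyte lines, 8.03 ± 0.27 in T cell lines, 7.99 ± 0.13 in B cell lines and 8.70 ± 0.08 in fibroblast lines. With it as a covariate the granulocyte differences were 0.33 ± 0.22 for Lat (SE, limma adjusted p = 0.77) and 0.15 ± 0.20 for Zap70 (0.87). Those of T cell from granulocyte lines were -0.33 for Lat (limma adjusted p = 0.54) and -0.16 for Zap70 (0.74), and none was called. In that fit the moderated F-test over the 4 origins called 0.0837% of all probe sets, against 25.8% without the covariate. A call lost there does not by itself show a smaller difference. The Zap70 differences were smaller with the covariate than without it, and those of Lat changed less. The cause of this was not tested.

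**Figure D3:**
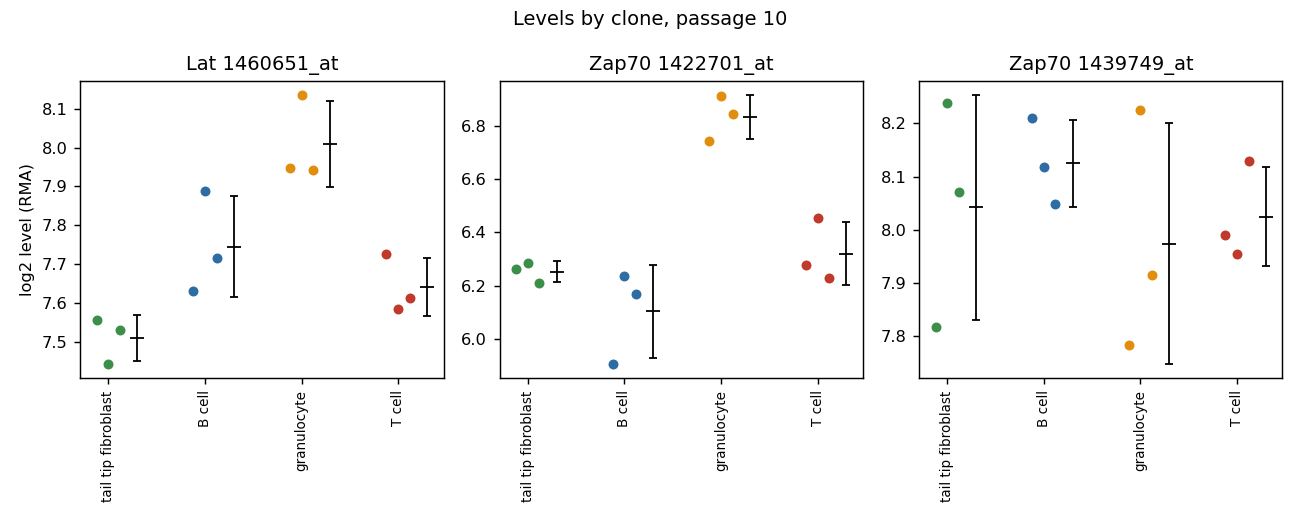
Log2 levels (RMA) of Lat and of both Zap70 probe sets in each clone at passage 10, by cell of origin, with the mean and SD of each group of 3 clones beside the points. Granulocyte clones lie above all others for Lat (7.94 to 8.14) and Zap70 1422701_at (6.74 to 6.91) and among them for Zap70 1439749_at; the axes do not start at 0.

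Fibroblast lines carried the highest mean Lat and Cd3e of mouse 2 at passage 4. Both were called against the mean of the other origins (2 of 8; 19.6% of all probe sets). Lat was higher by 0.85 ± 0.18 log2 units (SE, limma adjusted p = 0.0014; 0.00024 to 0.034 over the alternatives) and Cd3e by 0.67 ± 0.20 (adjusted p = 0.020; 0.0014 to 0.30). The Cd3e call was lost without fibroblast clone 2 (0.41, adjusted p = 0.30) or 3 (0.60, 0.085), and in the fit of 12 arrays (0.052). At passage 10, Lat was the 1 of 9 called (10.4% of all probe sets), now lower in fibroblast lines (-0.29 ± 0.07, SE, limma adjusted p = 0.025; 0.012 to 0.92 over the alternatives). Leaving out fibroblast clone 1 (adjusted p = 0.073) or 2 (0.14) ended that call, as did the fibroblast marker covariate (-0.24, 0.92). B cell lines had no call at passage 4 (0 of 8; 9.67% of all probe sets) and 1 member at an unadjusted p under 0.05 (22.8% of all).

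Passage was a second axis on which Lat moved. From passage 4 to 16, Lat fell in T cell lines from 7.83 ± 0.14 to 6.76 ± 0.14 log2 units (SD, n = 3 each), with no overlap between the passages. The change was -1.07 ± 0.22 (SE, limma adjusted p = 0.0012; 0.00053 to 0.026 over the alternatives), and Lat was the 1 of 8 called (16.7% of all probe sets). The fibroblast marker mean of T cell lines moved with it, from 7.10 ± 0.11 to 6.23 ± 0.235 log2 units (SD, n = 3 each), and with that mean as a covariate the Lat change was -1.15 (limma adjusted p = 0.026). Zap70 changed by -0.30 ± 0.25 (SE, limma adjusted p = 0.46) and Cd3e by 0.46 ± 0.25 (adjusted p = 0.23), neither called. For the other receptor chains, Cd28 and Cd5 of T cell lines, the differences lay between 0.11 and 0.32 and none was called.

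Fibroblast lines showed the same direction for Lat, from 7.60, 8.46 and 8.30 log2 units at passage 4 to 7.20, 6.75 and 6.76 at passage 16. The change was -1.22 ± 0.22 (SE, limma adjusted p = 0.00053; 7.9e-05 to 0.044 over the alternatives), the 1 of 8 called there (10.3%). The fibroblast marker mean of these lines went the other way, from 6.17 ± 0.14 to 6.93 ± 0.11 (SD, n = 3 each), and the Lat change with it as a covariate was -1.14 (limma adjusted p = 0.044). In B cell lines that mean was 6.08 ± 0.07 at passage 4 and 6.92 ± 0.33 at passage 16, and in granulocyte lines 6.57 ± 0.07 and 6.78 ± 0.14. B cell lines had 6.62, 7.13 and 6.93 at passage 16 and a difference of -0.41 ± 0.22 (adjusted p = 0.28), with 0 of 8 called by limma (8.97% of all probe sets) and 2 at an unadjusted p under 0.05 (22.9%). Granulocyte lines of mouse 2 had 7.13, 6.93 and 6.91 at passage 16 and a difference of 0.31 ± 0.22 (adjusted p = 0.25).

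At passage 16 the Lat means of the 4 origins lay between 6.76 and 6.99 log2 units, where they had lain between 6.68 and 8.12 at passage 4. The change of T cell lines was not called against the mean change of the other origins (-0.63 ± 0.25, SE, limma adjusted p = 0.094; 0.048 to 0.46 over the alternatives). No member was (0 of 8; 14.9% of all probe sets), with 1 at an unadjusted p under 0.05 (26.8%), and without B cell clone 3 of passage 4 Lat was called. Set against the other origins in the same way, Lat was the 1 of 8 called both for the change of fibroblast lines (-0.83 ± 0.25, SE, limma adjusted p = 0.031, and 0.11 with each line as a replicate block; 13.0% of all probe sets called) and for that of granulocyte lines (1.21 ± 0.25, adjusted p = 0.0014; 22.5%). In the mean over the other 3 origins, Lat fell by 0.44: the change was -0.44 ± 0.13 (SE, limma adjusted p = 0.011; 0.0019 to 0.42 over the alternatives). That call was lost with each line as a replicate block (adjusted p = 0.053) and with the fibroblast marker covariate (-0.38, 0.42).

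In the same mean Cd3g was called higher at passage 16, by 0.26 ± 0.09 (SE, limma adjusted p = 0.032; 0.011 to 0.20 over the alternatives), which made 2 of 8 beside 27.3% of all probe sets. That call was lost without any one of B cell clones 1 and 2 or fibroblast clone 1 of passage 16, B cell clones 1 and 3 or granulocyte clone 3 of passage 4, or the outlying granulocyte clone (adjusted p from 0.050 to 0.072). It was also lost with quantile (0.18, adjusted p = 0.077) or cyclic loess normalization (0.17, 0.11), with each line as a replicate block (0.12) and with the covariate (0.20). Cd3g stayed below percentile 25 in all arrays. In granulocyte lines of mouse 2, Cd3d was the 1 of 8 called (34.5% of all probe sets), from 3.63, 3.58 and 3.60 log2 units at passage 4 to 3.92, 3.81 and 4.91 at passage 16. That difference of 0.61 ± 0.23 (SE, limma adjusted p = 0.042; 0.0096 to 0.43 over the alternatives) rested on clone 3, the outlying array, without which it was 0.26 (adjusted p = 0.43). Leaving out any granulocyte clone of passage 4 also ended the call (adjusted p from 0.079 to 0.094), as did quantile (0.083) and cyclic loess normalization (0.32, adjusted p = 0.12), the covariate (0.085) and each line as a replicate block (0.11).

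**Figure D4:**
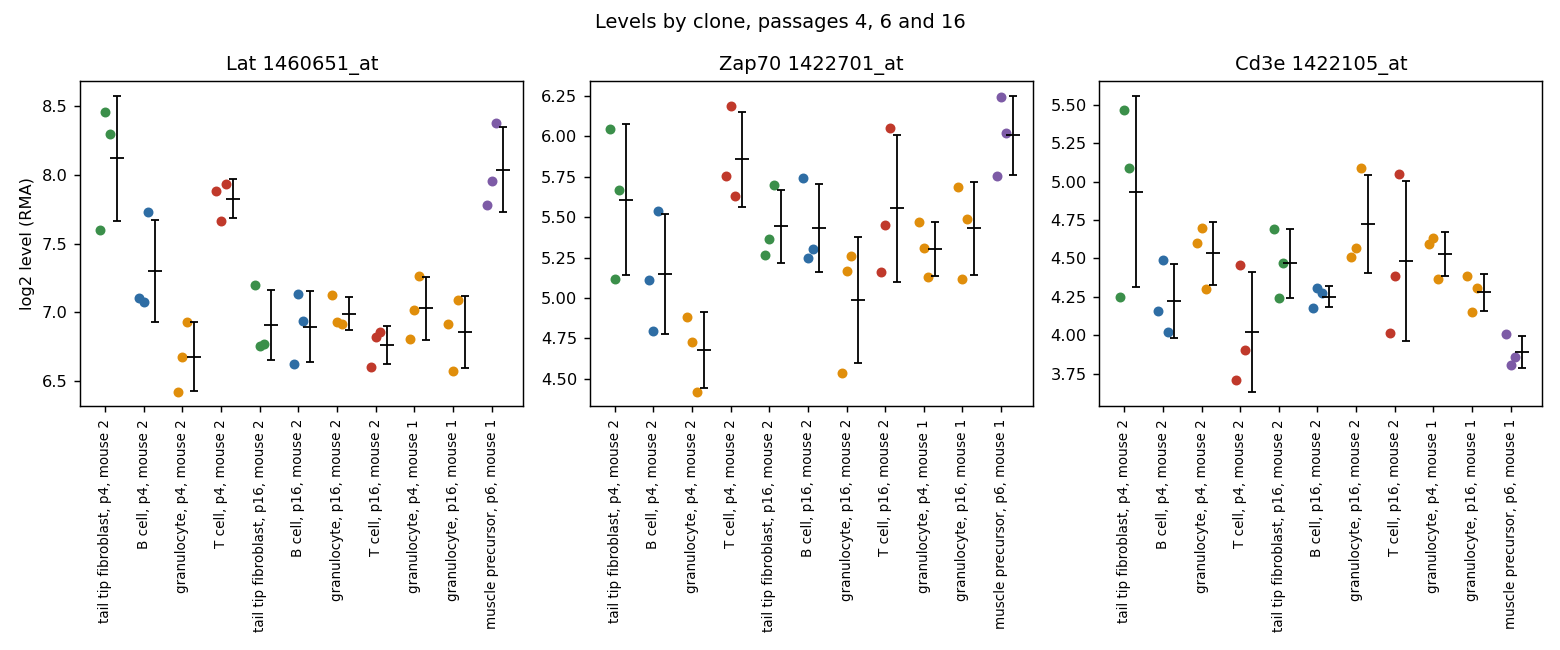
Log2 levels (RMA) of Lat, Zap70 1422701_at and Cd3e in each clone of the 11 groups at passages 4, 6 and 16, with the mean and SD of each group of 3 clones beside the points. Lat is high in fibroblast, T cell and muscle precursor lines of passages 4 and 6 and lies between 6.57 and 7.20 in every array of passage 16; the axes do not start at 0.

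Mouse 1 held no T cell lines, and its groups show how far the signalling members varied in lines with no lymphoid origin. Muscle precursor lines at passage 6 had Lat at 7.78, 7.96 and 8.38 log2 units, and granulocyte lines of the same mouse 6.80, 7.02 and 7.26 at passage 4 and 6.91, 6.57 and 7.09 at passage 16. The muscle precursor clones lay above all granulocyte clones of mouse 1. Lat differed by 1.01 ± 0.22 from granulocyte lines of passage 4 (SE, limma adjusted p = 0.0013; 0.00058 to 0.029 over the alternatives) and by 1.18 ± 0.22 from those of passage 16 (adjusted p = 0.00063; 0.00028 to 0.0095). Calls numbered 2 of 8 (20.6% of all probe sets) and 1 of 8 (12.9%).

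Zap70 of muscle precursor clones was at 5.76, 6.24 and 6.02 log2 units, against 5.47, 5.31 and 5.13 in granulocyte clones of mouse 1 at passage 4. The difference of 0.70 ± 0.25 (SE, limma adjusted p = 0.049; 0.042 to 0.54 over the alternatives) was lost without any one of those granulocyte clones (adjusted p from 0.072 to 0.15) and without muscle precursor clone 2 (0.20) or 3 (0.12). It was also lost with cyclic loess normalization (0.058) and a spread with trend (0.054). Cd3e of muscle precursor clones was at 4.01, 3.81 and 3.86, the lowest group mean of the larger table. Its difference from granulocyte lines of passage 4 was -0.64 ± 0.25 (adjusted p = 0.072). Muscle precursor lines also had a high fibroblast marker mean, 7.14 ± 0.13 (SD, n = 3), against 6.29 ± 0.41 in those granulocyte lines, and its part in the result was not tested beyond the covariate fit, in which the Zap70 difference was 0.47 (limma adjusted p = 0.54).

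Granulocyte lines were the only origin taken from both mice. No member differed between the mice at passage 4 by limma (0 of 8 called, 1 at an unadjusted p under 0.05; 6.46% and 18.6% of all probe sets), and mouse and line history cannot be told apart there. Zap70, at 4.88, 4.73 and 4.42 log2 units in mouse 2 and 5.47, 5.31 and 5.13 in mouse 1, had ranges that did not overlap and a difference of -0.62 ± 0.25 (SE, adjusted p = 0.16). In the granulocyte lines of mouse 1, 0 of 8 were called by limma between passages 4 and 16, none at an unadjusted p under 0.05 (0.886% of all probe sets called).

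Across the 11 groups of the larger table the order of Lat means was fibroblast lines of passage 4 (8.12 ± 0.46 log2 units, SD, n = 3), muscle precursor lines (8.04 ± 0.31) and T cell lines of passage 4 (7.83 ± 0.14), whose ranges overlapped. B cell lines of passage 4 followed (7.30 ± 0.37), then the other 7 groups between 7.03 and 6.68. For Zap70 the order began with muscle precursor lines (6.01 ± 0.24), T cell lines of passage 4 (5.86 ± 0.29) and fibroblast lines of passage 4 (5.61 ± 0.47), which overlapped, and ended with granulocyte lines of passage 4 of mouse 2 (4.68 ± 0.23). Group means of Lat spanned 1.44 log2 units, of Zap70 1.33 and of Cd3e 1.04, and those of Cd3d 0.712.

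Over the 11 group means Lat and Zap70 had a Pearson r of 0.676, while Zap70 and Cd3e had -0.496 and Cd3g and Cd3e 0.168. The genes whose group means were most like those of Lat, among 6928 probe sets with 1 symbol and a span of at least 1 log2 unit, were Fas (r = 0.973), a death receptor, Ints8 (0.963), an Integrator subunit, and Selp (0.959), an adhesion molecule of platelets and endothelium. For Zap70 they were Aloxe3 (0.903), an epidermal lipoxygenase, Sfi1 (0.901), a centrosomal protein, and Adamtsl4 (0.900), a matrix protein. For Cd3e they were Rbm4 (0.921), an RNA-binding protein, Invs (0.904), a ciliary protein, and Rgs19 (0.896), a regulator of G protein signalling. None of these 9 is a member, and the groups share arrays, a normalization and origins, so the values describe likeness only.

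Other T cell genes were read from lists of receptor signalling partners, surface molecules and cytokine receptors, transcription factors, effector molecules and antigen receptor assembly. At passage 4, 2 of 18 measured signalling partners were called higher in T cell lines and none lower, with a median difference of -0.031 beside 0.004 over all probe sets. Those 2 were the kinase Fyn, by 0.69 ± 0.14 log2 units (SE, limma adjusted p = 0.0012; 0.00011 to 0.082 over the alternatives), and the adaptor Nck1, by 0.73 ± 0.23 (adjusted p = 0.025; 0.0012 to 0.27), whose call ended without any one of the 3 T cell clones (adjusted p from 0.051 to 0.17). With the fibroblast marker covariate neither was called (Fyn 0.71 ± 0.24, SE, limma adjusted p = 0.082, and Nck1 0.78 ± 0.38, 0.27). That fit called 5.86% of all probe sets in this contrast. Neither difference was smaller than without the covariate, and both had a larger SE. Both genes act in many cell types. No call was made in the same contrast among 18 surface molecules (median 0.031), 15 transcription factors (-0.153), 11 effector molecules (0.045) or 8 assembly genes (0.074), beside the 17.4% of all probe sets called.

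At passage 10 no probe set of the whole table was called in this contrast (0.0%), so none of these lists could have a call. At passage 16, where 2.26% of all probe sets were called, 1 of 18 signalling partners was higher, the phosphatase Ptpn6, by 0.78 ± 0.20 (SE, limma adjusted p = 0.038; 0.011 to 0.35 over the alternatives). Its call ended without any one of the 3 T cell clones and without 4 of the 9 other clones of that passage: B cell clones 2 and 3 and fibroblast clones 1 and 2. It also ended in the fit of the 12 arrays of passage 16 alone (adjusted p = 0.35) and with the covariate (0.15). Of 15 transcription factors 1 was lower, the chromatin organiser Satb1, by -1.83 ± 0.24 (SE, limma adjusted p = 0.00018; 1.4e-05 to 0.074, the last in the fit of 12 arrays). Satb1 shapes chromatin in thymocytes and is also expressed in pluripotent cells, and it was lower, not higher, in the lines of T cell origin. The tyrosine phosphatase Ptprc, or CD45, which marks nearly all leukocytes, had a median percentile of 3.00 in the 33 arrays and 5.97 at passage 10, and the receptor chain Cd247 had 39.8 and 11.2 by different probe sets.

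The wider T cell marker list (13 genes measured of 14, the 7 members among them) had 12 genes below the array median in the larger table, 7 of them at a median percentile under 25, and 11 below it at passage 10. Its mean was 4.62 ± 0.10 log2 units (SD, n = 3) in T cell lines at passage 4, within the group means of 4.41 to 4.72, of which fibroblast lines of passage 4 were the highest. At passage 10 T cell lines had 5.13 ± 0.03 in a range of 5.12 to 5.17. Markers of the other starting cells were also read in T cell lines against the other origins. In that contrast 17.4% of all probe sets were called at passage 4, none at passage 10 and 2.26% at passage 16. B cell markers had no call at passages 4 and 16, and no list could have one at passage 10. Of 10 granulocyte markers 1, the lysozyme gene Lyz2, was lower at passage 4 (-1.02, limma adjusted p = 0.011) and 16 (-1.42, adjusted p = 0.0066). Of 12 fibroblast markers, 7 were higher at passage 4 (median 0.96), beside 10.3% of all probe sets called higher. At passage 16, 3 were lower (median -0.759), beside 2.26% called in either direction. The calls of these granulocyte and fibroblast markers were not run under the alternatives.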

How the data were processed

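Probe set values on the log2 scale were deposited by the authors after RMA, which the submitters' processing notes name, in 2 tables from 2 array platforms (33 arrays of passages 4, 6 and 16, and 12 of passage 10). The RMA version and chip definition are not given in the sources used here. Each table was analysed on its own, and the number of arrays limits the precision.

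Probe sets were named from the platforms' annotation lists, which paired 18003 of 22690 probe sets with 1 symbol in the larger table and 20393 at passage 10 (287 and 691 with several, 4400 and 1606 with none). Every probe set entered limma 3.58.1 (R 4.3.3; lmFit, eBayes), with 1 mean per group and the spread shared over all groups of a table. Two-sided p-values were Benjamini-Hochberg adjusted over all probe sets, and a call is an adjusted p under 0.05. A difference between groups of 3 clones is given with its SE.

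The members, the other T cell lists and the markers were chosen with earlier results of these data known, and support nothing beyond their own values. Named from the lists were genes called in T cell lines against the other origins, up to 4 per list and direction, read from the probe set with the highest mean. Genes with a pattern like a member were the 3 with the highest Pearson r for each member whose group means span at least 1 log2 unit. The fit was tested on simulated data. Alternatives were other normalizations, a filter on dim probe sets, 1 probe set per gene, a spread with trend, clone or line blocks, a fibroblast marker covariate, the arrays of 1 passage alone, and leaving out each array. Whether clone numbers pair the passages of a line was not settled by the correlation of deviations from group means. It was 0.106 to 0.174 within granulocyte lines of mouse 2, and reached 0.478 between different lines with the same number. The value with each line as a replicate block is given where it ended a call.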

Additional observations from a re-analysis of the deposited data

Results flagged for a closer look

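Lat is listed here because its change from passage 4 to 16 differed between origins of mouse 2. In fibroblast lines it was lower by 0.83 than the mean change of the other 3 origins (-0.83 ± 0.25 log2 units, SE, limma adjusted p = 0.031; 0.0059 to 0.15 over the alternatives; 13.0% of all probe sets called). That call was lost without fibroblast clone 2 (adjusted p = 0.11) or 3 (0.081) of passage 16, without clone 2 (0.15) or 3 (0.069) of passage 4, and with the fibroblast marker mean as a covariate (0.12) or each line as a replicate block (0.11). In granulocyte lines the change exceeded that of the others by 1.21 ± 0.25 log2 units (SE, limma adjusted p = 0.0014; 0.00042 to 0.017 over the alternatives; 22.5% of all probe sets called). Both contrasts use the same 24 arrays.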

How the results depend on the processing

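Limits: with 3 clones of 1 mouse a group, uncalled differences of T cell lines from the others had 95% intervals reaching 0.83 (Lat) and -0.96 log2 units (Cd3e) at passage 4, and most members lie near the dim end.

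Lat and Zap70 in granulocyte lines at passage 4, T cell against granulocyte lines at passage 4, Lat of fibroblast lines at passage 4, the passage changes of Lat in T cell and fibroblast lines, the granulocyte passage contrast of Lat and both muscle precursor differences of Lat kept their direction and call under every alternative run.

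Counts of calls that moved were as follows. For T cell lines against the others at passage 4, the count of 1 became 2 of 8 with quantile (17.3% of all probe sets called) or cyclic loess normalization (19.1%). It became 0 of 8 with the fibroblast marker covariate (5.86%). With the dim filter, which left 1 member, Lat, it was 0 (29.4%). Leaving out single clones gave 1 to 2. The 2 arose without B cell clone 3 (17.4% of all probe sets called) or fibroblast clones 1 (17.5%) or 2 (16.9%) of passage 4. It also arose without granulocyte clone 3 of passage 16 (24.1%). Among the 4 origins, the count of 3 at passage 4 became 1 of 1 with the dim filter, which left only Lat (56.6% of all probe sets called). Without single clones it was 2 to 3. The count of 2 at passage 10 became 1 of 7 with 1 probe set per gene (32.2%) and 1 of 2 with the dim filter (49.0%). Neither of these settings held Zap70 1422701_at. With the covariate it became 0 of 9 (0.0837%). The count of 0 at passage 16 became 1 of 8 without granulocyte clone 2 (16.4%), and was 0 to 1 without single clones. The passage count of 2 over the other 3 origins became 1 of 8 with quantile (28.1% of all probe sets called) or cyclic loess normalization (29.4%). With the dim filter, which left only Lat, it was 1 of 1 (41.8%). With the covariate it was 0 of 8, in a fit that called 2.53% of all probe sets, against 27.3% without the covariate. Leaving out single clones gave 1 to 2, and 0 to 1 for the contrast of T cell with other passage changes.

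With the clone number as a replicate block, the count for T cell lines at passage 4 became 2, beside 18.3% of all probe sets (Lat, limma adjusted p = 0.048). Zap70 of muscle precursor lines was no longer called (0.053), and no other call of a member changed. With each line as a replicate block, the passage count of 2 over the other 3 origins became 0 (Lat 0.053, Cd3g 0.12), beside 19.3% of all probe sets. Cd3d of granulocyte lines (0.11) and the fibroblast passage contrast of Lat (0.11) were then no longer called. That fit of single origins was chosen after seeing the data. Deviations from the group mean of same-numbered clones correlated with a median r of 0.033 between passages 4 and 16 (12 pairs, -0.347 to 0.371, 6 over 0.1). All 3 pairs of granulocyte lines of mouse 2 were among the 6, at 0.106 to 0.174. Between T cell and other lines of passage 4, which are different lines, the median was 0.077 (9 pairs, -0.293 to 0.478, 2 over 0.1). The values therefore do not settle whether equal numbers mark the same line at both passages, and the fits with blocks are alternatives only.

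Differences of T cell lines that changed sign, all uncalled, were these. Passage 4: Cd28 1417597_at -0.0046 (cyclic loess), -0.0145 (quantile), -0.0816 (covariate); and, with the covariate, Cd28 1437025_at 0.0064, Cd3d -0.2169, Cd5 -0.1314. Passage 16: Cd3e -0.0123 (cyclic loess), -0.024 (quantile); Cd3g -4.4e-05 (cyclic loess), -0.0979 (covariate); Cd3d 0.0854 (covariate). Leaving out single clones gave, at passage 4, Cd28 1417597_at -0.0359 to 0.0622, Cd28 1437025_at -0.0845 to 0.0376, Cd3d -0.0425 to 0.0976, Cd5 -0.0169 to 0.0873; at passage 10, Cd28 1417597_at -0.1317 to 0.0015, Cd28 1437025_at -0.0074 to 0.1128, Cd3d -0.0845 to 0.0284, Cd3g -0.0111 to 0.0692, Cd5 -0.133 to 0.0366, Zap70 1439749_at -0.0747 to 0.0193; at passage 16, Cd28 1417597_at -0.0016 to 0.1937, Cd28 1437025_at -0.0304 to 0.3777, Cd3d -0.4095 to 0.1159, Cd3e -0.2796 to 0.2349, Cd3g -0.1422 to 0.1566. The causes of these changes were not tested.

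Of the values of single genes under the other settings, 348 kept direction and call, 29 lost the call, 3 gained it and 11 changed sign. Without single clones these numbers were 608, 39, 6 and 30.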
